A study of Mus musculus with 16 samples.

Results

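The genes described here are regulators of the periotic mesenchyme, a list chosen by name with earlier results of these data known. Pou3f4, Tbx15, Tbx18, Prrx1, Prrx2 and Twist1 encode transcription factors, and Pdgfra and Pdgfrb encode receptors. Of the 8 listed genes, 7 had at least 1 probe set carrying their symbol in the platform annotation, and Tbx18 had none there and is left out. They were read by 11 probe sets of the 12422 tested on the chip: 3 for Tbx15, 3 for Pdgfra and 1 for each of the other 5 genes. A probe set is a group of short oligonucleotides on the array that together give 1 value for a transcript.

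The series compared whole inner ears of newborn (P0) COUP-TFI-/- mice with those of wild-type mice, both on the 129SvEv strain background. COUP-TFI is a nuclear receptor encoded by Nr2f1, and the mutant is a constitutive knockout. Each of 8 Affymetrix MG-U74Av2 chips received RNA pooled from several ears, and how many animals a pool held is not given in the sources used here. The chips were hybridized on separate occasions in 2 sets, called A and B, and each set held 1 pool per genotype hybridized to duplicate chips, so that n = 2 pools per genotype.

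The periotic mesenchyme surrounds the otic epithelium and gives rise to the cartilage of the otic capsule, to the fibrocytes of the spiral ligament and to the connective tissue around the cochlear duct. Pou3f4 acts in this tissue, and its loss causes X-linked deafness in people and cochlear defects in mice. Tbx15, Prrx1, Prrx2 and Twist1 are better known from the mesenchyme of the head and limbs. The platelet-derived growth factor (PDGF) receptors carry growth signals into mesenchymal cells and into the pericytes of blood vessels. In RNA from whole ears, fewer mesenchymal cells and less RNA per cell cannot be told apart.

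Pou3f4 and the brightest Pdgfra probe set were higher in set A than in set B in both genotypes and in both normalizations. The sequences just before a start site of each gene are shown because these probe sets moved together between the sets. Another Pdgfra probe set, 160332_at, had the opposite sign between the sets in GCRMA, a normalization described below, at -0.20 log2 units. The 250 bases before each start are from RefSeq (GRCm38.p6), 5′ to 3′ on the plus strand. They lie at chrX:110814129-110814378 for Pou3f4 and chr5:75152001-75152250 for Pdgfra. The Pdgfra stretch lies inside the annotated gene (chr5:75151322-75198206), before a start within that span. Capitals mark the letters CANNTG, the E-box that Twist1 and related basic helix-loop-helix factors bind.
Pou3f4: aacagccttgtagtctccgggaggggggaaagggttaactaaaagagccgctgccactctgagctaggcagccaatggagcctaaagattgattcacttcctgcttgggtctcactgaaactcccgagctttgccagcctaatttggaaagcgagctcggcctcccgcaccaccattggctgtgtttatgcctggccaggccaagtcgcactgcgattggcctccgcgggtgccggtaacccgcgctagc
Pdgfra: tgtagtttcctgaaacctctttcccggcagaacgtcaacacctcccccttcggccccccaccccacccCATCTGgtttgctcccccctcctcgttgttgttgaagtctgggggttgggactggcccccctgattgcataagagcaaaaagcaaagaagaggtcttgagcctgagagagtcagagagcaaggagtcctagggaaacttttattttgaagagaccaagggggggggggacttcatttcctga
The Pdgfra stretch held 1 E-box, whose first base lies 182 bases before the start used for it, and the Pou3f4 stretch held 0. Promoter windows were at hand for 5 of the 7 genes (Pou3f4, Prrx1, Prrx2, Pdgfra and Twist1), each reaching from 250 bases before to 50 bases after the start. Those of Prrx1 and Prrx2, like that of Pdgfra, lie within the annotated span of the gene. In these windows CANNTG was found in 1 of 5, against 72.3% of all 32851 windows. AGGTCA, the hexamer that nuclear receptors such as COUP-TFI bind, was found on either strand in 0 of 5, against 16.3% of all windows. ATGCAAAT, the octamer bound by POU factors, was found in 0 of 5, against 1.74% of all windows. These matches describe letters within the windows and not binding.

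The deposited values of each chip came in 2 forms, a log2 value from GCRMA and a linear intensity from dChip, both methods that combine the probes of a set into 1 value. Duplicate chips correlated at 0.996 to 0.997 over all probe sets in GCRMA. Nr2f1 was between 4.68 and 5.26 on the COUP-TFI-/- chips and between 7.74 and 8.83 on the wild-type chips, a difference of -3.37 ± 0.11 (SE) with a limma adjusted p of 5.9e-11. It was lower on every chip labelled COUP-TFI-/-. Values after ± are SE throughout, and differences are on the log2 scale. The 2 sets differed more than the genotypes: the median absolute difference over all probe sets was 0.16 on the log2 scale between sets and 0.06 between genotypes. Markers of the tissue were measured too, including Coch, a secreted protein of spiral ligament fibrocytes, which averaged 8.19 in COUP-TFI-/- and 8.36 in wild-type.

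Across the 11 probe sets no genotype difference passed the adjusted test. The test was limma on the 4 pool means, with the set as a term and Benjamini-Hochberg adjustment over all probe sets, at an adjusted p under 0.05, 2-sided. In GCRMA 0 of 11 passed, against 0.105% of all probe sets, and in dChip 0 of 11, against 0.00805%. The methods' 2-way analysis of variance on GCRMA, adjusted alike, also gave 0 of 11, against 0.00805% of all, a single probe set. At an unadjusted p under 0.05, there were 2 of 11 in GCRMA (Tbx15 100354_at and Pdgfrb), against 4.58% of all, and 1 of 11 in dChip (Tbx15 100354_at), against 2.13%. The median difference over the 11 was 0.08 in GCRMA and 0.09 in dChip, beside 0.00 and -0.01 over all probe sets.

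The sign of the difference was compared over both sets and both normalizations. Of the 11, 4 were higher in COUP-TFI-/- in all of them, against 11.5% of all probe sets: the 3 for Tbx15 and 1 for Pdgfra. Another 2 were lower in COUP-TFI-/- in both sets and normalizations, against 10.4% of all: those for Pou3f4 and Prrx2. The remaining 5 took different signs between sets or normalizations.

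**Figure D1:**
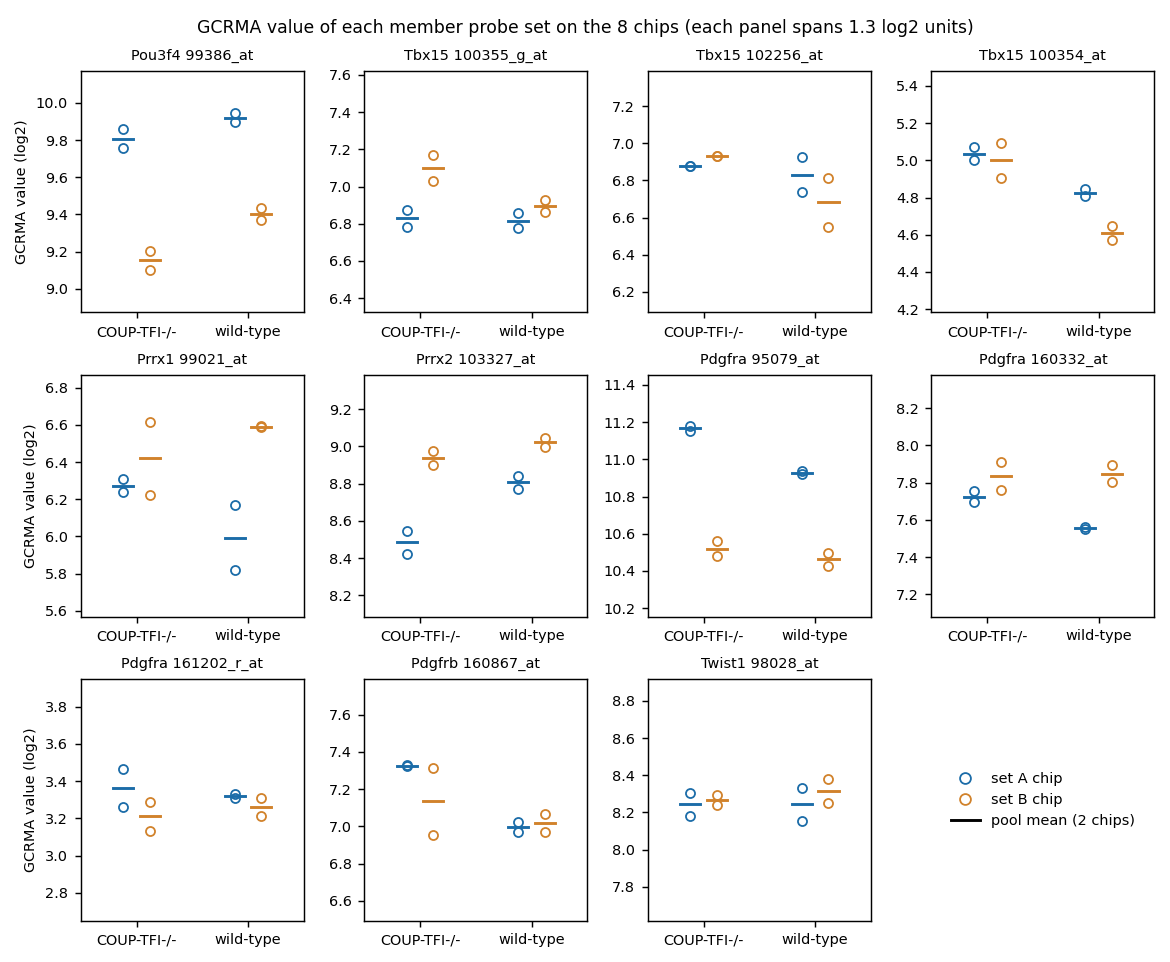
GCRMA values (log2, y axis) of the 11 probe sets on the 8 chips, COUP-TFI-/- left of wild-type in each panel; circles are chips, short lines the mean of the duplicate chips of 1 pool, blue set A and orange set B, and every panel spans the same height. For Tbx15 100354_at all 4 COUP-TFI-/- chips lie above all 4 wild-type chips, and for Pou3f4 the gap between the sets exceeds the gap between the genotypes.

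Tbx15, a T-box factor of the developing head and limb skeleton (chr3:99240348-99354260), held the probe set with the largest genotype difference among the 11, 100354_at. This is the dimmest of its 3 probe sets. The brightest, 100355_g_at, was at 0.11 in GCRMA, smaller in size than Pdgfrb (0.22), Prrx2 (-0.20) and Pou3f4 (-0.18). Probe set 100354_at gave GCRMA values of 5.07 and 5.0 (set A) and 5.10 and 4.91 (set B) in COUP-TFI-/- ears, against 4.81 and 4.84 (set A) and 4.57 and 4.65 (set B) in wild-type ears. Every COUP-TFI-/- chip was above every wild-type chip, as in 1 of the 11 probe sets and 1.35% of all, and chips without overlap in either direction were seen in 2.26% of all. The difference was 0.30 ± 0.10 (SE, n = 2 pools per genotype; 95% interval 0.09 to 0.51), or 1.23-fold, at 0.21 within set A and 0.39 within set B, with an unadjusted limma p of 0.00767 and an adjusted p of 0.713.

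In dChip the same probe set read 72.5 and 67.2 (set A) and 56.8 and 64.9 (set B) in COUP-TFI-/-, against 52.0 and 65.5 (set A) and 47.6 and 49.2 (set B) in wild-type. There the genotypes overlapped, since both COUP-TFI-/- chips of set B lay below 1 wild-type chip of set A. The dChip difference was 0.29 ± 0.10 on the log2 scale, at 0.26 within set A and 0.33 within set B, with a limma adjusted p of 1.00. This probe set is dim: 12.3% of all probe sets had a lower mean.

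The other Tbx15 probe sets pointed the same way with smaller differences. Probe set 100355_g_at, built from the same GenBank record as 100354_at, read 6.78 and 6.87 (set A) and 7.03 and 7.17 (set B) in COUP-TFI-/-, against 6.77 and 6.86 (set A) and 6.87 and 6.93 (set B) in wild-type. Its difference of 0.11 ± 0.10 (95% interval -0.10 to 0.32) came almost wholly from set B, at 0.20 against 0.01 in set A. Probe set 102256_at read 6.88 and 6.88 (set A) and 6.93 and 6.93 (set B) in COUP-TFI-/-, against 6.74 and 6.93 (set A) and 6.81 and 6.55 (set B) in wild-type, a difference of 0.15 ± 0.10 (95% interval -0.06 to 0.36). With 1 chip left out in turn this difference lay between 0.0817 (without wild-type B2) and 0.214 (without wild-type B1). The 12 pool differences of the 3 probe sets, over 2 sets and 2 normalizations, were all positive, from 0.01 to 0.39, but they share the same 4 pools. Over the 8 chips, 100354_at correlated with 102256_at at 0.642 in GCRMA and with 100355_g_at at 0.142, and at 0.625 and 0.597 once each set's mean was taken out.

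Pou3f4, the POU-domain factor of the otic mesenchyme (chrX:110814379-110819108), was lower in COUP-TFI-/- in each set without passing the test. Its GCRMA values were 9.76 and 9.86 (set A) and 9.10 and 9.20 (set B) in COUP-TFI-/-, against 9.94 and 9.90 (set A) and 9.44 and 9.37 (set B) in wild-type. Within either set both COUP-TFI-/- chips lay below both wild-type chips, but across the sets the genotypes overlapped. Chips of 1 genotype within a set are duplicates of 1 pool, and the share of all probe sets so separated was not counted. The difference was -0.18 ± 0.10 (95% interval -0.39 to 0.02), at -0.11 within set A and -0.25 within set B, with an unadjusted limma p of 0.0799 and an adjusted p of 1.00. In dChip Pou3f4 read 1490 and 1568 (set A) and 960 and 1040 (set B) in COUP-TFI-/-, against 1714 and 1645 (set A) and 1034 and 1099 (set B) in wild-type, a log2 difference of -0.11 ± 0.10, at -0.14 within set A and -0.09 within set B.

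The paired-related homeobox factors Prrx1 and Prrx2 shape the skeleton of the head and limbs in mice. Prrx2 (chr2:30845064-30881251) read 8.42 and 8.54 (set A) and 8.90 and 8.97 (set B) in COUP-TFI-/-, against 8.77 and 8.84 (set A) and 9.05 and 9.0 (set B) in wild-type. The COUP-TFI-/- pool mean was the lower one in each set, by 0.32 within set A and 0.08 within set B. The pooled difference was -0.20 ± 0.10 (95% interval -0.42 to 0.01), with an unadjusted limma p of 0.0586 and an adjusted p of 1.00. In dChip it was -0.09 ± 0.10, at -0.08 within set A and -0.10 within set B.

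Prrx1 (chr1:163245119-163315145) took opposite signs in the sets. It read 6.24 and 6.31 (set A) and 6.22 and 6.62 (set B) in COUP-TFI-/-, against 5.82 and 6.17 (set A) and 6.59 and 6.59 (set B) in wild-type. The difference was 0.28 within set A and -0.17 within set B, and 0.05 ± 0.11 (95% interval -0.18 to 0.29) over the sets. Its duplicate chips were the most spread of the 11, with an SD of 0.19 against a median of 0.09 over all probe sets. In dChip the difference was positive in both sets, at 0.23 within set A and 0.12 within set B.

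Twist1, a basic helix-loop-helix factor needed for the mesenchyme of the head (chr12:33957671-33959831), was close to 0 in its genotype difference. It read 8.30 and 8.18 (set A) and 8.29 and 8.24 (set B) in COUP-TFI-/-, against 8.16 and 8.33 (set A) and 8.38 and 8.25 (set B) in wild-type, and the genotypes overlapped throughout. The difference was -0.02 ± 0.10 (95% interval -0.23 to 0.18) in GCRMA and 0.08 ± 0.10 in dChip.

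Among the receptors, Pdgfra (chr5:75151322-75198206), which marks mesenchymal progenitors and fibroblasts, had 3 probe sets whose differences were not alike. The brightest, 95079_at, read 11.18 and 11.16 (set A) and 10.48 and 10.56 (set B) in COUP-TFI-/-, against 10.92 and 10.94 (set A) and 10.50 and 10.43 (set B) in wild-type. In set A both COUP-TFI-/- chips were above both wild-type chips, and in set B they overlapped. The difference was 0.15 ± 0.10 (95% interval -0.06 to 0.36), at 0.24 within set A and 0.06 within set B, and 0.16 ± 0.10 in dChip.

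Pdgfra 160332_at read 7.70 and 7.75 (set A) and 7.91 and 7.76 (set B) in COUP-TFI-/-, against 7.56 and 7.55 (set A) and 7.80 and 7.89 (set B) in wild-type. Its difference was 0.17 within set A and -0.01 within set B, and 0.08 ± 0.10 (95% interval -0.13 to 0.29) over both. It was 0.0397 without COUP-TFI-/- B1 and 0.115 without COUP-TFI-/- B2. The last, 161202_r_at, lay between 3.13 and 3.47 on all 8 chips, and 0.781% of all probe sets had a lower mean, so its difference of 0.00 ± 0.10 is one between values near the bottom of the chip.

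Pdgfrb (chr18:61045127-61085067), the PDGF receptor of pericytes and other mural cells, read 7.32 and 7.33 (set A) and 7.31 and 6.96 (set B) in COUP-TFI-/-, against 7.02 and 6.97 (set A) and 7.06 and 6.97 (set B) in wild-type. Of the 4 COUP-TFI-/- chips, 3 were above every wild-type chip and 1 of set B was below every wild-type chip. The difference was 0.22 ± 0.10 (95% interval 0.01 to 0.43), at 0.33 within set A and 0.12 within set B, with an unadjusted limma p of 0.0392 and an adjusted p of 1.00. Without the low chip, B2, it was 0.31, and without B1 of the same pool it was 0.13. In dChip it was 0.09 ± 0.11, at 0.18 within set A and -0.01 within set B.

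**Figure D2:**
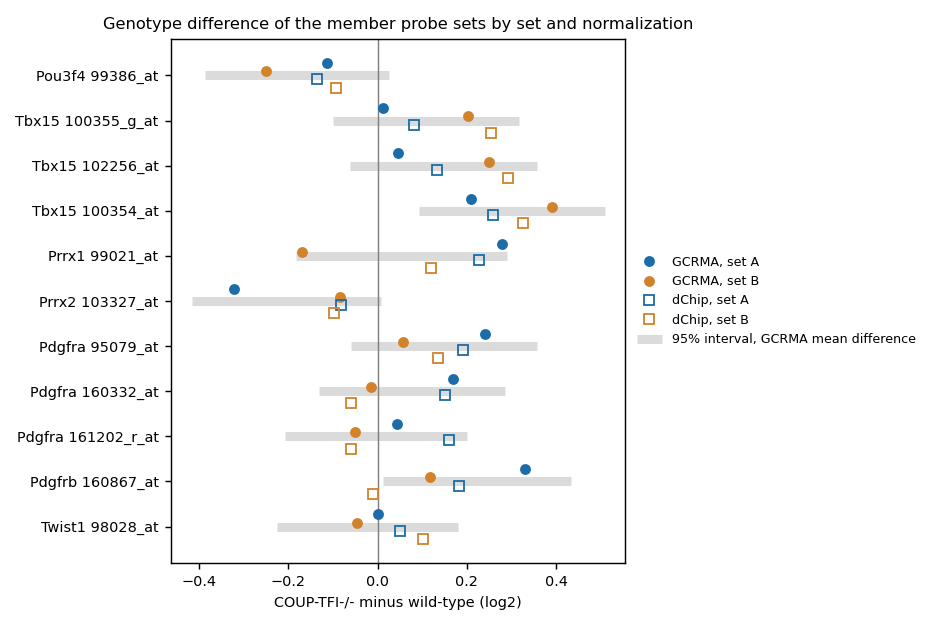
COUP-TFI-/- minus wild-type (log2, x axis) for each probe set, in set A (blue) and set B (orange), from GCRMA (filled circles) and dChip (open squares); grey bars are the 95% interval of the GCRMA difference over both sets. The intervals of Tbx15 100354_at and Pdgfrb leave out 0, and all 4 points of Tbx15 100354_at lie between 0.21 and 0.39.

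The methods' own selection, a 2-factor test on the 8 chips with duplicates as replicates, was applied to the same probe sets. It asks for an interaction p over 0.01 in both normalizations and a genotype p under 0.01 in one and under 0.05 in the other. With limma 1 of 11 passed, Tbx15 100354_at, against 2.42% of all probe sets. With the plain analysis of variance 3 of 11 passed, Tbx15 100354_at, Prrx2 and Pdgfra 95079_at, against 1.42% of all. The members were chosen with earlier results of these data known, so these counts are not those of an independent list. These p-values measure the spread between duplicate chips of 1 pool and not between animals. An interaction, which asks whether the genotype difference itself differed between the sets, was reached at p under 0.01 by 0 of 11 in GCRMA with limma, against 6.01% of all, by 0 in dChip, against 8.37%, and by 0 in GCRMA with the analysis of variance, against 4.03%. At a limma p under 0.05 in GCRMA 1 of 11 did, against 16.4% of all: Prrx1, with a limma p of 0.0333. In limma fits with 1 chip left out, Prrx1 had an interaction p of 0.00211 without COUP-TFI-/- B2 and 0.00651 without wild-type A2, and Pdgfrb one of 0.00856 without COUP-TFI-/- B1.

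The sets differed more than the genotypes for 8 of the 11 probe sets in GCRMA, and the share of all probe sets that did so was not counted. The median absolute difference of the 11 was 0.18 between sets and 0.15 between genotypes. Over all probe sets these medians were 0.16 and 0.06. By limma on the pool means 4 of 11 differed between sets at an adjusted p under 0.05, against 25.8% of all probe sets. Of these, 2 were higher in set A, against 13.6% of all, and 2 were lower in set A, against 12.2%. In dChip 4 of 11 passed, against 11.7% of all, and 3 probe sets passed in both: those of Pou3f4, Prrx1 and Pdgfra 95079_at. In a GCRMA fit with the set alone, which leaves the pools unpaired, 2 of 11 passed, Pou3f4 and Pdgfra 95079_at, against 23% of all. With the set as the only difference, time of hybridization and RNA pool cannot be told apart.

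Pou3f4 was higher in set A than in set B by 0.65 in COUP-TFI-/- and by 0.52 in wild-type, or 0.59 ± 0.10 together (limma adjusted p = 0.00045), and by 0.63 in dChip (adjusted p = 0.0235). Pdgfra 95079_at was higher in set A by 0.65 in COUP-TFI-/- and by 0.46 in wild-type, or 0.56 ± 0.10 together (adjusted p = 0.000742), and by 0.47 in dChip (adjusted p = 0.0446). Every set A chip of these 2 probe sets was above every set B chip. How many of all probe sets separated the sets in this way was not counted, and 25.8% of all passed the adjusted test for set in GCRMA. The set difference of Pdgfra 160332_at in GCRMA had the opposite sign, at -0.20 ± 0.10 (adjusted p = 0.148), and passed in limma on the 8 single chips (adjusted p = 0.0292).

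Prrx1 was lower in set A by 0.15 in COUP-TFI-/- and by 0.60 in wild-type, with a joint difference of -0.37 ± 0.11 in GCRMA (limma adjusted p = 0.0223) and -0.84 ± 0.10 in dChip (adjusted p = 0.0138). In dChip it read 111 and 123 (set A) and 180 and 224 (set B) in COUP-TFI-/-, against 89.1 and 112 (set A) and 191 and 179 (set B) in wild-type, with no overlap of the sets. The share of all probe sets without such overlap was not counted. In GCRMA the sets overlapped in COUP-TFI-/-, and the call was lost in limma fits without COUP-TFI-/- A1 (adjusted p = 0.0928), COUP-TFI-/- B2 (0.126), wild-type A1 (0.0506) or wild-type B1 (0.0613).

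The set difference of Prrx2 took opposite signs in the normalizations. In GCRMA it was lower in set A, at -0.33 ± 0.10 (limma adjusted p = 0.0225), and in dChip the difference was 0.21 ± 0.10 (adjusted p = 0.213). The GCRMA call was lost in limma fits without COUP-TFI-/- A1 (adjusted p = 0.0759) or wild-type B1 (0.0688). Its dChip intensities were 949 and 969 (set A) and 820 and 830 (set B) in COUP-TFI-/-, against 1020 and 1011 (set A) and 854 and 914 (set B) in wild-type. Over the 8 chips its GCRMA and dChip values correlated at -0.539, where the median probe set reached 0.753. After the set means were taken out they correlated at 0.659. The genotype direction of Prrx2 was the same in both normalizations.

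Tbx15 102256_at was higher in set A in dChip, by 0.57 ± 0.11 (limma adjusted p = 0.0334), and its set difference in GCRMA was 0.05 ± 0.10 (adjusted p = 0.761). Set differences for Pdgfrb and Twist1 were within 0.19 of 0 in either normalization, and their sign turned between them.

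**Figure D3:**
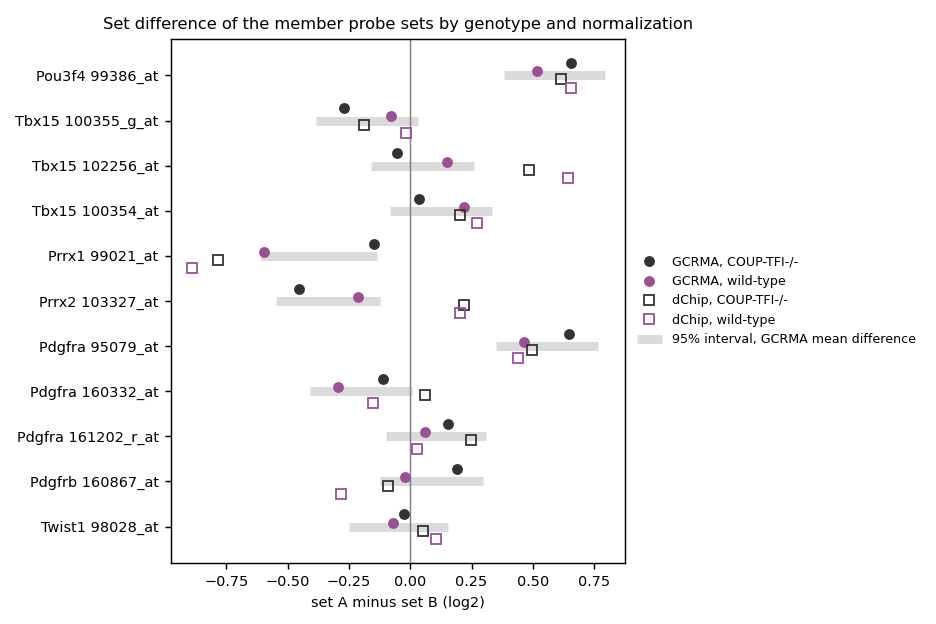
Set A minus set B (log2, x axis) for each probe set in COUP-TFI-/- (black) and wild-type (purple), from GCRMA (filled circles) and dChip (open squares); grey bars are the 95% interval of the GCRMA difference over both genotypes. Pou3f4 and Pdgfra 95079_at lie to the right of 0 in all 4 readings, Prrx1 to the left in all 4, and Prrx2 on opposite sides in GCRMA and dChip.

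Correlations between members over the chips hold the set difference as well as the genotype difference. Over the 8 chips Pou3f4 and Pdgfra 95079_at correlated at 0.844 in GCRMA and 0.838 in dChip, and at -0.477 in GCRMA once each set's mean was taken out. Prrx1 and Prrx2 correlated at 0.476 in GCRMA and at -0.918 in dChip. These correlations are descriptions over 8 chips from 4 pools.

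The genes whose GCRMA values ran most like those of each member over the 8 chips were looked up among all probe sets with 1 symbol. For Pou3f4 they were Ccnl2 (r = 0.996), Nefl (0.995) and Csnk2a2 (0.992), with dChip correlations of 0.849, 0.891 and 0.990. For Pdgfra 95079_at they were Zhx1 (0.991), Fbn2 (0.991) and Eif2s2 (0.990), with dChip correlations of 0.936, 0.966 and 0.795. These correlations were high in both normalizations, which read the same 8 chips. The partners were picked by their GCRMA r, and the set difference was not taken out.

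The other members had partners that dChip mostly did not share. For Prrx2 they were Phb2, Smim26 and Tmem208, at 0.972 to 0.984 in GCRMA and -0.758 to -0.626 in dChip. Prrx1 went with Trp53-ps, Vamp2 and Msn (0.952 to 0.972, and -0.627 to 0.413 in dChip), and Pdgfrb with Fdps, Pgs1 and 2210010C04Rik (0.915 to 0.977, and 0.0764 to 0.534 in dChip). Tbx15 100355_g_at went with Nup85 (0.973, and -0.374 in dChip), Mmp13 (0.972 and 0.777) and Sema6a (0.968 and 0.836). Twist1 went with Pcsk1n, Sec23b and Gzmd (0.913 to 0.928, and 0.0211 to 0.362 in dChip).

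Other genes of the same pathways and families were read alongside, each by its brightest probe set. Of 17 listed PDGF ligands and relay proteins 15 were on the chip, and 0 passed the adjusted limma test for genotype and 0 the unadjusted p under 0.05. Their median difference was 0.04, the ligand genes Pdgfa and Pdgfb being at -0.03 ± 0.10 and 0.07 ± 0.10. The 2 with the largest differences were Pik3r1, a regulatory subunit of the kinase PI3K, at 0.15 ± 0.10, and Sos1, a Ras exchange factor, at -0.11 ± 0.10. The related receptor genes Csf1r and Kit were at 0.15 ± 0.10 and -0.14 ± 0.10 in GCRMA. Both took the opposite sign in dChip, at -0.01 and 0.09.

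Of the transcription factor relatives, none passed the adjusted test in limma. Among 13 partners of Twist1 and factors of mesenchymal transition 0 reached an unadjusted p under 0.05. Their largest differences were those of Snai2, a zinc-finger repressor of E-cadherin, at 0.17 ± 0.10 and Tcf4, an E protein, at -0.17 ± 0.11. That of Tcf4 was 0.07 within set A and -0.40 within set B. Among 5 other T-box factors and 7 other POU factors 0 and 0 reached it, with Pou3f3 nearest at 0.22 ± 0.10 (unadjusted limma p of 0.0532, adjusted p of 1.00). Among 19 other mesenchymal homeobox factors 1 did: Dlx2, a factor of the branchial arches, averaged 5.01 in COUP-TFI-/- and 4.62 in wild-type, a difference of 0.39 ± 0.10, at 0.50 within set A and 0.28 within set B (unadjusted limma p of 0.00135, adjusted p of 0.355).

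Markers of the mesenchyme and its derivatives were set beside the members. Of 19 fibroblast and mesenchyme markers 0 passed the adjusted limma test for genotype and 3 reached an unadjusted p under 0.05, all higher in COUP-TFI-/-: Col6a2 (0.30 ± 0.10), Mfap5 (0.28 ± 0.12) and Fap (0.22 ± 0.10). Of these, Fap, a membrane protease of fibroblasts, was higher in both sets and both normalizations. The list's median difference was 0.14 within set A and -0.01 within set B, and its summed dChip intensity was 54450 to 57650 on COUP-TFI-/- chips and 51130 to 54360 on wild-type chips. The part of these markers in the differences of Tbx15, Pdgfra and Pdgfrb was not tested. Of 11 mural cell markers 0 passed the adjusted test and 1 reached the unadjusted p, Des (0.25 ± 0.11), an intermediate filament gene that the striated muscle list also holds. Their summed dChip intensity was 5371 to 5560 on COUP-TFI-/- chips and 4972 to 5365 on wild-type chips, and its part in the Pdgfrb difference was not tested.

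Fibrocyte and cartilage markers moved in opposite directions between the sets. Of 7 otic fibrocyte genes 6 were higher in set A at the adjusted limma p and 0 lower, with a median set difference of 0.55. Their summed dChip intensity was 9427 to 10480 on set A chips and 7100 to 7871 on set B chips. Of 13 otic capsule cartilage genes 8 were lower in set A and 0 higher, with a median of -0.53 and sums of 24440 to 26360 on set A chips and 38250 to 43460 on set B chips. Of 11 sensory epithelium markers 6 were higher in set A and 1 lower, with a median of 0.32. Over all probe sets 13.6% were higher in set A at that p and 12.2% lower. Pou3f4 and Pdgfra 95079_at had the direction of the fibrocyte genes and of those 6 sensory epithelium markers. Prrx1 had that of the cartilage genes. Pdgfra 160332_at, at -0.20 ± 0.10 in GCRMA, had the opposite direction to 95079_at. The part of any cell type in those set differences was not tested.

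For genotype, 0 of the 7 fibrocyte genes passed the adjusted test and 1 reached an unadjusted p under 0.05: Gjb2, a gap junction gene, at -0.29 ± 0.11. Of the cartilage genes 0 passed and 1 reached it, Acan, the large proteoglycan of cartilage, at 0.21 ± 0.10. The 4 bone genes on the chip were all higher in COUP-TFI-/- without any reaching it. Sensory epithelium markers gave 0 at the adjusted p and 3 at the unadjusted p, all lower in COUP-TFI-/-: Tectb (-0.48 ± 0.10), Sox2 (-0.36 ± 0.10) and Calb1 (-0.29 ± 0.10).

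Striated muscle genes set the pools apart mostly within set B. Of 24 such genes, 15 were higher in COUP-TFI-/- at an unadjusted p under 0.05, against 4.58% of all probe sets in either direction. The adjusted limma test was passed by 2, against 0.105% of all: the embryonic and perinatal myosin genes Myh3 (0.80 ± 0.12, adjusted p = 0.014) and Myh8 (0.98 ± 0.14, adjusted p = 0.00916). These were higher within set A too, by 0.49 for Myh3 and 0.56 for Myh8, against 1.11 and 1.41 within set B. The list's median difference was 0.02 within set A and 0.67 within set B. Its summed dChip intensity was 30550 in COUP-TFI-/- and 31450 in wild-type in set A, but 36020 in COUP-TFI-/- and 22150 in wild-type in set B. The differences of the 3 Tbx15 probe sets were also larger in set B than in set A in both normalizations, and the part of muscle RNA in them was not tested. That of Pou3f4 was larger in set B in GCRMA and in set A in dChip, and that of Prrx2 the other way round. Those of Pdgfra 95079_at and Pdgfrb were larger in set A in both normalizations.

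Of 6 Schwann cell and glia markers 1 passed for genotype, Fabp7, a fatty acid binding protein of glial precursors, at -0.58 ± 0.10 (limma adjusted p = 0.0389). Of 9 endothelial and 6 melanocyte markers 0 and 0 reached an unadjusted p under 0.05.

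**Figure D4:**
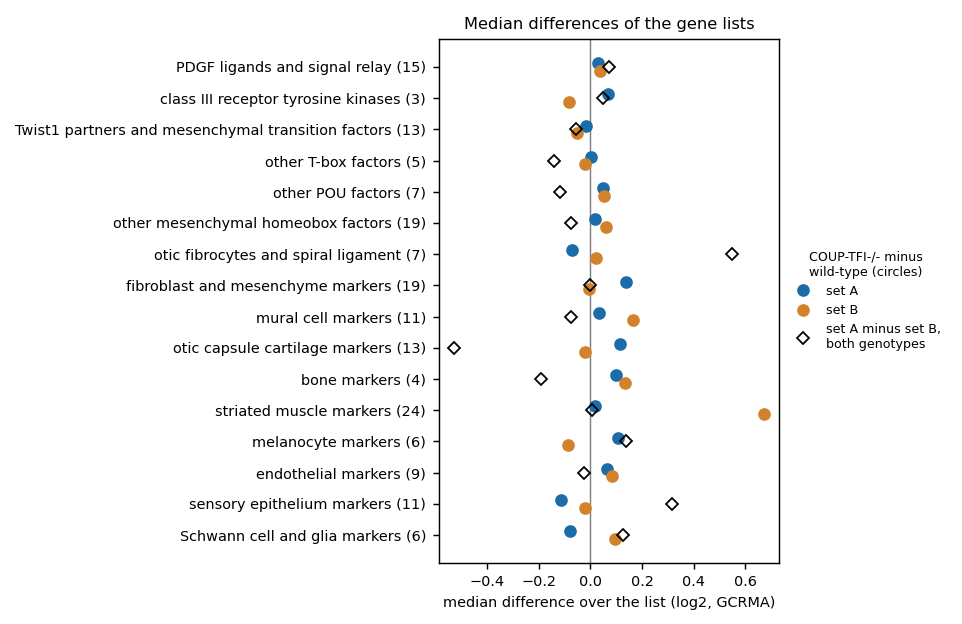
Median log2 difference in GCRMA (x axis) over each gene list, with the number of its genes on the chip in brackets; circles are COUP-TFI-/- minus wild-type in set A (blue) and set B (orange), and diamonds are set A minus set B. Striated muscle stands out for genotype in set B at 0.67, and fibrocytes (0.55) and cartilage (-0.53) lie farthest apart between the sets.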

How the data were processed

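Total RNA pools from whole P0 inner ears were hybridized to 8 chips. The authors deposited each chip as a GCRMA log2 value per probe set and as a dChip model-based intensity on a linear scale, 16 value columns in all, and software versions are not given in the sources used here. No raw probe signal was used. The letter of a chip was read as its hybridization set and the number as the duplicate. Of 12488 probe sets 66 controls were left out, and 12421 of the 12422 tested had a complete dChip value. Before log2, 89 dChip values under 1 were raised to 1.

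Duplicate chips were averaged to 4 pools and fitted with limma 3.58.1 (R 4.3.3, statmod 1.5.0), genotype and set as terms, with Benjamini-Hochberg adjustment over all probe sets. The fit has 1 residual degree of freedom, and the prior of limma had 14.3 in GCRMA and 4.55 in dChip. By the methods, pools of 1 set were hybridized together and are paired, and over all probe sets the set difference in COUP-TFI-/- correlated with that in wild-type at 0.752 in GCRMA and 0.688 in dChip. The interaction and the methods' selection used the 8 chips. Scripts were tested on simulated data.

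The members and lists were chosen with earlier results of these data known. The rule names every member probe set, Nr2f1, up to 4 genes of each list at an unadjusted p under 0.05 with 1 sign in both sets and normalizations or else the 2 largest differences, and 3 genes most like each member. Col6a2, Mfap5, Pdgfa, Pdgfb and Coch were named after their values were seen. Symbols came from the platform annotation: 10833 probe sets had 1 symbol, 396 several and 1193 none. An array holds no counts, and its precision here is limited by the few pools. Alternatives were dChip, quantile normalization, floors on dim values, a filter on dim probe sets, single chips with or without the pool as a random block, a mean-variance trend, the 2-way analysis of variance, no set term, and each chip left out.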

Additional observations from a re-analysis of the deposited data

Results flagged for a closer look

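Pdgfrb 160867_at had 1 COUP-TFI-/- chip far from the other 3 in GCRMA: 6.96 on chip B2, against 7.31, 7.32 and 7.33. The gap to the nearest chip took 0.955 of the whole range of the 4 chips, past Dixon's 95% critical value. Of 44 such groups of 4 chips this was the only one past it, and chance passes about 1 in 20 groups. Without that chip the genotype difference of Pdgfrb was 0.31 in place of 0.22 (limma adjusted p = 0.558), and without COUP-TFI-/- B1, the other chip of the same pool, it was 0.13 (adjusted p = 1.00).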

How the results depend on the processing

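No member passed the adjusted p for genotype under any of the 18 alternatives, and 177 of 191 single genotype differences kept their sign and call. The 14 others turned sign. Over the chips left out in turn, the genotype difference lay between -0.0442 and 0.153 for Prrx1, -0.0556 and 0.047 for Pdgfra 161202_r_at and -0.0671 and 0.0202 for Twist1. Pdgfra 161202_r_at was at 0.0507 in dChip, 0.00807 after quantile normalization and 0.108 with dChip values under 16 set to 16. Twist1 was at 0.0758 in dChip, with that floor too.

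The number of members that differed between sets was 4 of 11, against 25.8% of all probe sets. It was 2 without the replicate block, against 23% of all (for the set difference, genotype was left out of the fit in place of the set). It was 3 after quantile normalization (21.4% of all), 3 of 5 with dim probe sets left out (34%) and 5 on single chips with the pool as a random block or without it (40.7% and 40.9%). It was 2 to 4 with 1 chip left out, with 2 without COUP-TFI-/- A1 (16.5% of all) or wild-type B1 (18.1%). Pdgfra 160332_at, at -0.20, gained a set call on single chips (adjusted p = 0.0292, and 0.03 with the pool as a random block) and in the 2-way analysis of variance (0.0438), and Tbx15 102256_at, at 0.57, gained one in dChip (0.0334, and 0.0158 with the floor). The block changed no genotype call of a member; over all probe sets 13 passed with it and 0 without it. Set differences that turned sign were those of Prrx2 (0.21 in dChip, with or without the floor), Pdgfrb (-0.19 in dChip, with or without the floor, and between -0.00356 and 0.174 with 1 chip left out), Twist1 (0.0801 in dChip, with or without the floor) and Tbx15 102256_at (between -0.0177 and 0.115 with 1 chip left out). Prrx1 lost its set call in the 2-way analysis of variance (adjusted p = 0.107), after quantile normalization (0.0523) and with no block (0.0565). It also lost it in limma fits without COUP-TFI-/- A1 or B2 or wild-type A1 or B1, and Prrx2 without COUP-TFI-/- A1 or wild-type B1. Pou3f4 and Pdgfra 95079_at kept theirs under all 18. Interactions numbered 0, or 0 to 1 with 1 chip left out. The methods' selection held 1 member with limma, 3 with the 2-way analysis of variance and 1 to 2 with 1 chip left out, where Pou3f4 joined without COUP-TFI-/- B2. The cause of these changes was not tested.

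Over all probe sets the count past the adjusted p for genotype was 13, against 1 in dChip, 2 after quantile normalization, 6 with GCRMA values under 4 set to 4, 38 with dim probe sets left out, 27 on single chips, 1 in the analysis of variance and 1 to 54 with 1 chip left out. With 2 pools per genotype and 1 residual degree of freedom, the 95% intervals of the members reached 0.20 to 0.24 on either side of the difference on the log2 scale, before any adjustment for the number of probe sets.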
